A study of Homo sapiens with 6 samples.

Results

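Glycolysis splits glucose into pyruvate in the cytosol and yields ATP and NADH on the way. Glucose enters through facilitative transporters of the SLC2A family, hexokinase traps it by phosphorylation, phosphofructokinase makes the committed step, and a chain of abundant enzymes from aldolase to pyruvate kinase completes the route. Lactate dehydrogenase then turns pyruvate into lactate and renews NAD+, and many tumour cells run this route at a high rate even with oxygen present. The 10 genes described here are SLC2A1, the widely expressed glucose transporter GLUT1, the enzymes HK2, PFKP, ALDOA, GAPDH, PGK1, ENO1, PKM and LDHA, and PFKFB3, which makes the activator of phosphofructokinase. They were taken by symbol from a table of 58735 genes, and each symbol matched 1 row. All 10 were among the 12128 genes whose mean was at least 1 FPKM. FPKM is read fragments divided by gene length in kilobases and by a depth value for each library.

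MDA-MB-231, a human line from a breast adenocarcinoma of the basal-like kind, was sequenced without irradiation (0 Gy, 3 libraries) and 24 h after 10 Gy from a 137Cs source (3 libraries). All 6 libraries have SCR in their names and the genotype WT in their labels. SCR was taken to mean shSCR, a non-targeting short hairpin RNA. On that reading, no library came from cells without a hairpin. The data are of a single cell line, and no source used here says whether replicates were separate cultures, so p-values measure only the spread between these samples. RNA came from whole cultures, so fewer cells with a transcript and less of that transcript per cell cannot be told apart. FPKM is relative to the depth of a library, so absolute amounts of RNA were not measured.

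Reads recovered from the deposited values came to between 15643641 and 21928560 per library at 0 Gy and between 17570365 and 28861781 at 10 Gy. Libraries of the same dose correlated at 0.992 to 0.994 across genes on the log2 scale, and libraries of different dose at 0.984 to 0.989. Of 7 genes known to be high in this line, all 7 were expressed, led by VIM, an intermediate filament protein of mesenchymal cells, at 301 ± 9.54 FPKM at 0 Gy (SD, n = 3). VIM, CAV1 and AXL among them fell after 10 Gy under each scaling used, and CD44 with the deposited one. KRT8 was called higher with TPM (0.22), upper quartile scaling (0.19) and scaling to each library's own recovered reads (0.17), but not with the deposited values. Of 7 genes low or absent in it, 3 were under 0.1 FPKM, with the hormone receptor genes ESR1 and PGR at 0.0087 and 0 FPKM. The 3 tested, ERBB2, GATA3 and EPCAM, stood at 7.08, 3.05 and 1.44 FPKM at 0 Gy, and none passed with the deposited values. ERBB2 was called higher under the same 3 scalings as KRT8. Of 10 markers of blood, vessel and stromal cells, 7 were under 0.1 FPKM, with CD3E and HBB at 0 in every library. The summed level of those 10 was 2.70 to 3.15 FPKM at 0 Gy and 3.64 to 3.96 FPKM at 10 Gy, most of it PECAM1 and PDGFRB, the 2 that were tested. PECAM1, an endothelial adhesion molecule, rose from 1.22 to 1.94 FPKM (0.40, limma adjusted p = 0.0027), and the part of these markers in the results was not tested.

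After 10 Gy, 5 of the 10 glycolysis genes fell and none rose at an adjusted p under 0.05 (limma on log2(FPKM + 1), Benjamini-Hochberg over all 12128 genes). HK2 fell most, by 0.37 on the log2 scale, and ENO1, PKM, PFKP and GAPDH fell by 0.19 to 0.25. Among all genes tested, 35.6% were called, 23.7% lower and 11.9% higher. LDHA, PGK1 and ALDOA had higher values in every irradiated library than in every control library but did not pass the test, whereas SLC2A1 and PFKFB3 overlapped between doses. The groups did not overlap for 5 genes in the lower direction and 3 in the higher direction, beside 32.8% and 19.1% of all genes and 51.9% in either direction. On the log2(FPKM + 1) scale none of the 10 passed with a change of at least 1.3-fold, which 2.95% of all genes did in the lower direction and 2.82% in the higher. HK2 lay at that limit, at -0.37 with the pseudocount of 1 and, past the limit, at -0.41 with pseudocounts of 0.1 and 0.01, -0.40 without control replicate 1 and -0.38 without RT replicate 1. The median change of the 10 genes was -0.12, beside -0.04 for all genes tested.

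**Figure D1:**
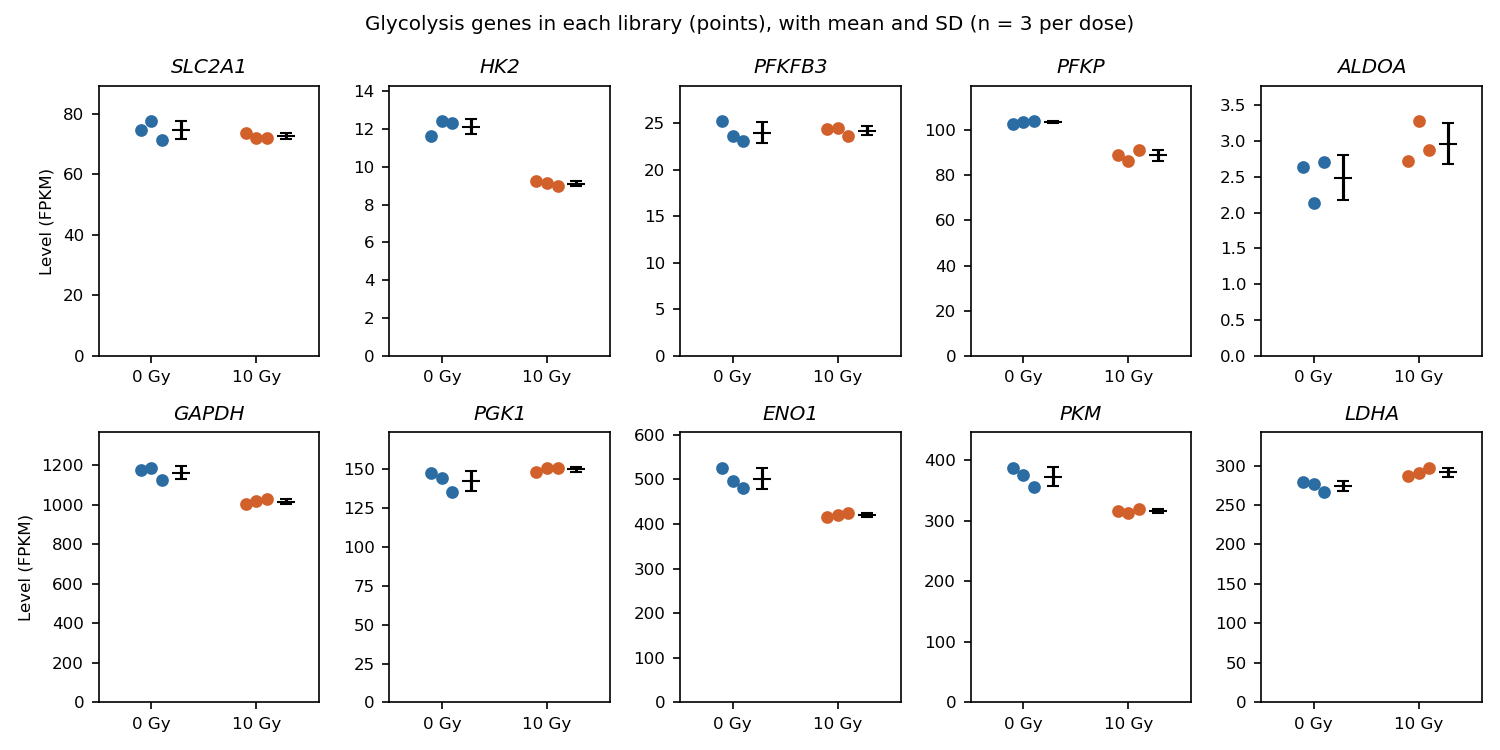
Level in FPKM (each panel has its own axis from 0) of the 10 genes at 0 Gy and 10 Gy, with 1 point per library and bars for the mean and SD of 3 libraries. HK2, PFKP, GAPDH, ENO1 and PKM have every irradiated library below every control library, and LDHA, PGK1 and ALDOA have the reverse.

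At the entry step, SLC2A1 (GLUT1, chr1:42925375-42959176, minus strand, GRCh38) stood at 74.8, 77.6 and 71.6 FPKM in the control libraries and at 73.8, 72.0 and 72.1 FPKM after irradiation. The irradiated values lay inside the range of the controls. The log2 difference was -0.04 (95% interval -0.13 to 0.05, adjusted p = 0.45), and it turned positive under 3 other scalings of the libraries.

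HK2, the hexokinase that many tumours induce and that docks on mitochondria (chr2:74833981-74893359, plus strand), measured 11.6, 12.4 and 12.3 FPKM at 0 Gy and 9.24, 9.13 and 8.96 FPKM at 10 Gy. The lowest control library was above the highest irradiated one. Its mean went from 12.1 ± 0.408 to 9.11 ± 0.142 FPKM (SD, n = 3), a ratio of 0.752, and it fell by 0.37 (SE 0.037, limma adjusted p = 8.05e-04).

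PFKP, the platelet-type phosphofructokinase (chr10:3066333-3137712, plus strand), measured 103, 104 and 104 FPKM in controls and 88.9, 86.4 and 91.0 FPKM in irradiated cells. The controls were almost identical, and all irradiated libraries lay under them. PFKP fell by 0.22 (SE 0.031, limma adjusted p = 0.0026).

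PFKFB3 (chr10:6144934-6254644, plus strand) makes fructose 2,6-bisphosphate, the strongest allosteric activator of phosphofructokinase. It measured 25.2, 23.6 and 23.1 FPKM at 0 Gy and 24.4, 24.5 and 23.6 FPKM at 10 Gy, with the irradiated values inside the control range. The log2 difference was 0.01, with a 95% interval of -0.08 to 0.11 (limma adjusted p = 0.81).

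In the lower part of the route, GAPDH, which oxidises glyceraldehyde 3-phosphate (chr12:6533927-6538374, plus strand), was the most abundant of the 10. It measured 1179, 1188 and 1124 FPKM in controls and 1005, 1018 and 1029 FPKM after irradiation, so the groups did not overlap. It fell by 0.19 (SE 0.047, limma adjusted p = 0.018), with a mean ratio of 0.874. The call on GAPDH was lost in 9 of 20 alternatives, including scaling to each library's own recovered reads (-0.12, adjusted p = 0.054), upper quartile scaling (-0.10, adjusted p = 0.071) and TPM (-0.07, adjusted p = 0.19). Leaving out control replicate 2 (adjusted p = 0.062) or RT replicate 1, 2 or 3 (0.087, 0.073 and 0.052) also ended it.

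ENO1, the main enolase outside muscle and nerve (chr1:8861000-8879250, minus strand), measured 526, 497 and 480 FPKM at 0 Gy and 416, 421 and 425 FPKM at 10 Gy. PKM, the pyruvate kinase that makes pyruvate and ATP (chr15:72199029-72231822, minus strand), measured 387, 375 and 355 FPKM at 0 Gy and 315, 313 and 320 FPKM at 10 Gy. Both genes were lower in all irradiated libraries than in any control. ENO1 fell by 0.25 (SE 0.045, limma adjusted p = 0.0060) and PKM by 0.23 (SE 0.042, limma adjusted p = 0.0062). The PKM row sums all its transcripts, so the M1 and M2 forms are not separated.

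PGK1, which makes ATP next to GAPDH in the route (chrX:77910739-78129296, plus strand), measured 147, 144 and 135 FPKM in controls and 148, 151 and 151 FPKM in irradiated cells. The highest control lay just under the lowest irradiated library. The log2 difference was 0.07 (95% interval -0.02 to 0.17, limma adjusted p = 0.18).

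LDHA, the subunit of lactate dehydrogenase that dominates in glycolytic cells (chr11:18394388-18408425, plus strand), measured 279, 276 and 266 FPKM in controls and 287, 290 and 297 FPKM after 10 Gy. Every irradiated library was above every control. The log2 difference of 0.09 (95% interval 0.0049 to 0.17) did not pass after adjustment (limma adjusted p = 0.092), and passed without control replicate 1 (0.10, adjusted p = 0.043).

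ALDOA, the aldolase of muscle and most tumours (chr16:30064164-30070457, plus strand), was listed at 2.63, 2.13 and 2.70 FPKM at 0 Gy and at 2.72, 3.27 and 2.88 FPKM at 10 Gy. These values rest on 128 to 319 reads per library. The log2 difference was 0.18 (SE 0.085, limma adjusted p = 0.13), with the largest standard error of the 10 genes.

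The level listed for ALDOA was far below that of the next enzyme of the route, TPI1 (triosephosphate isomerase), at 354 ± 26.7 FPKM in controls, and of PGAM1 (phosphoglycerate mutase), further down, at 241 ± 8.13 FPKM. In GENCODE 29, whose merged exon lengths equal the deposited gene lengths for all 58735 rows, ALDOA shares 1657 bases with another protein-coding row on the same strand, AC093512.2. That is 42.3% of the merged exons of ALDOA and 82.6% of its principal transcript (1324 of 1603 bases). AC093512.2 itself stood at 0.919 to 1.74 FPKM. How reads on both rows were counted is not given in the sources used here. Divided by the 1821 bases that no other row shares, the same reads gave ALDOA 4.57 to 7.04 FPKM. The value of ALDOA is therefore uncertain as a level of the enzyme's mRNA, and so is its difference between doses.

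**Figure D2:**
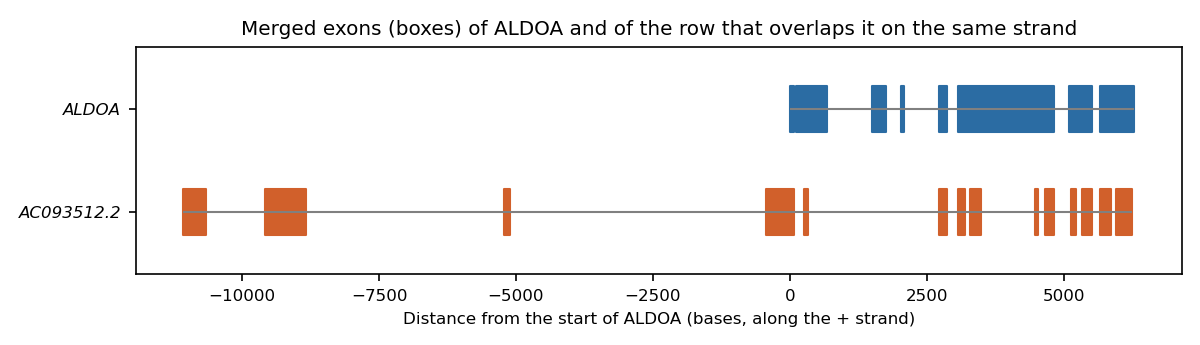
Merged exons in GENCODE 29 of ALDOA and of AC093512.2, the row that overlaps it on the same strand, by distance in bases from the start of ALDOA. The exons of both rows coincide over much of ALDOA, 1657 shared bases in all.

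Among the other 9 genes, overlaps with further rows were small. GAPDH shares 14.2% of its merged exons with AC006064.4 on the opposite strand, listed at 0 in every library. Processed pseudogenes, whose near-identical sequence can take reads from their parent gene, had 231 to 380 reads in all over 62 rows for GAPDH, at most 0.431% of its own reads. For LDHA, 6 such rows held at most 0.228% of its reads.

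The order of deposited levels was the same at both doses: GAPDH, ENO1, PKM, LDHA, PGK1, PFKP, SLC2A1, PFKFB3, HK2 and ALDOA. The ranges of neighbours in this order did not overlap at either dose. The closest neighbours were ENO1 and PKM at 0 Gy, with a ratio of means of 1.34, and PKM and LDHA at 10 Gy, with 1.09. FPKM is per base of all merged exons, and with the length of each gene's principal transcript instead, PKM (1176 ± 51.0) stood level with ENO1 (1127 ± 52.3) and PFKP (189 ± 1.02) stood above PGK1 (161 ± 7.05) at 0 Gy, whereas PGK1 (169 ± 1.79) stood above PFKP (162 ± 4.13) at 10 Gy. The 10 genes together came to 2670 ± 84.4 FPKM at 0 Gy and 2393 ± 25.4 FPKM at 10 Gy, a ratio of 0.896. As a share of each library's recovered reads they took 1.26% ± 0.031 and 1.20% ± 0.0076 (SD, n = 3).

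Scaling of the libraries moved the direction of calls over the whole table. The depth by which the deposited values were divided was 0.973 to 0.991 of a library's recovered reads at 0 Gy. At 10 Gy it was 1.03 to 1.04 of them, so the deposited values carry a factor that differed between doses. Scaling to own reads replaces that depth by the recovered reads. Of the genes called with the deposited FPKM, 33.4% were higher after 10 Gy, whereas 74.5% were with TPM, 63.9% with upper quartile scaling and 58.3% with scaling to each library's own recovered reads. Median-of-ratios scaling called 1483 genes higher and 2753 lower, beside 1443 and 2874 with the deposited values. The other 3 scalings named further on are TPM, upper quartile and own-read scaling. TPM moved the median of all genes by 0.11 on the log2 scale. Relative to that median, GAPDH stood at -0.16 with the deposited values and -0.13 with TPM, HK2 at -0.34 and -0.33, LDHA at 0.13 and 0.15, and SLC2A1 at 0.00031 and 0.02. HK2, PFKP, ENO1 and PKM were called lower under all 20 alternatives. LDHA passed as higher with TPM (0.22, limma adjusted p = 0.0018), upper quartile scaling and own-read scaling, and PGK1 did under the same 3.

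**Figure D3:**
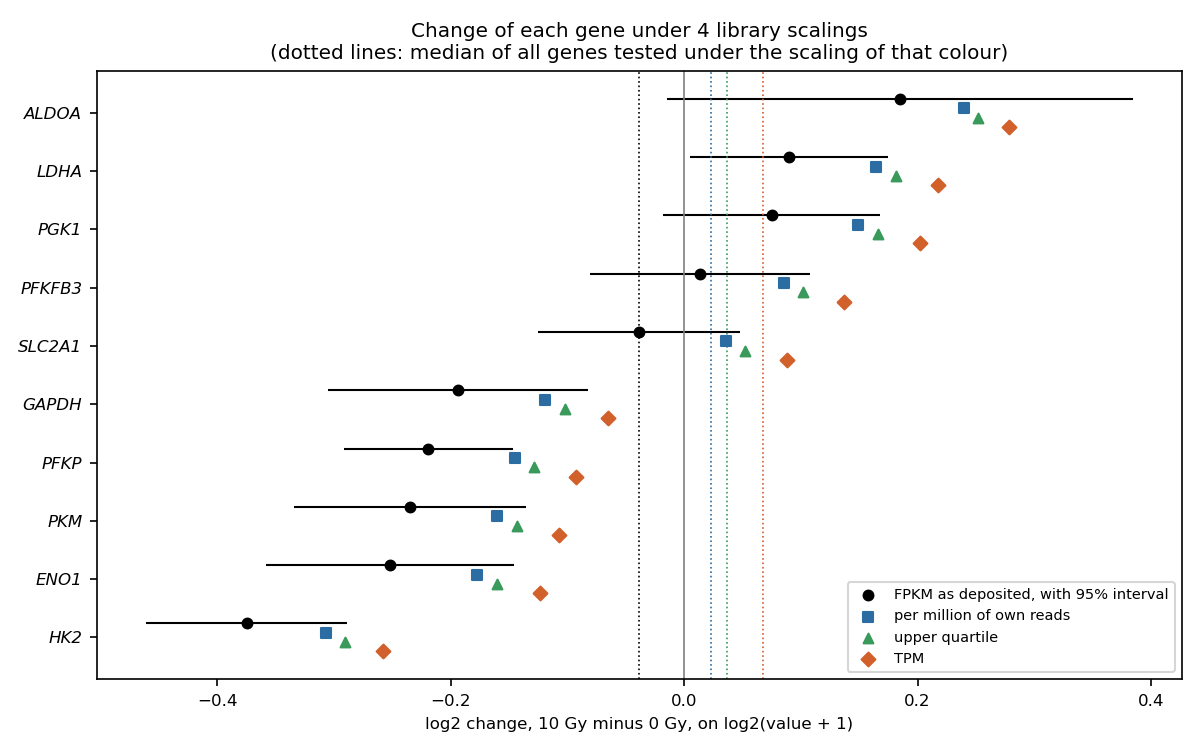
Change of each gene on log2(value + 1), 10 Gy minus 0 Gy, under 4 scalings of the libraries, with dotted lines for the median of all genes under the scaling of that colour. HK2, ENO1, PKM, PFKP and GAPDH lie left of every median, LDHA, PGK1 and ALDOA right of every median, and SLC2A1 close to it.

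Since 356 other genes also averaged at least 100 FPKM, the abundant enzymes can be set beside them. Those 356 genes had a median change of -0.17 with quartiles of -0.26 and -0.09, and 55.9% of them were called lower and 4.49% higher. The changes of GAPDH, ENO1 and PKM lay between these quartiles. Those of LDHA (0.09) and PGK1 (0.07) lay above the upper quartile.

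Ratios of genes within a library do not depend on its scaling. Those of LDHA and PGK1 to the enzymes that fell give the size of the difference between them, and were chosen after the values were seen. The ratio of LDHA to PKM was 0.720, 0.736 and 0.749 at 0 Gy and 0.909, 0.926 and 0.929 at 10 Gy, a log2 difference of 0.33. LDHA to ENO1 differed by 0.34 and LDHA to GAPDH by 0.28 in the same sense. PGK1 relative to ENO1, PKM and GAPDH differed by 0.33, 0.31 and 0.27. Since numerator and denominator moved in opposite directions in every library, these ratios could not overlap between doses. Among the enzymes that fell, ENO1 to PKM overlapped, at 1.33 to 1.36 in controls and 1.32 to 1.34 after irradiation, as did PFKP to GAPDH. ENO1 to GAPDH, PKM to GAPDH and HK2 to GAPDH did not overlap and were lower after irradiation, with log2 differences of -0.06, -0.04 and -0.22. With 3 libraries against 3, the smallest p an exact two-sided permutation test of a ratio can give is 0.1, so ratios are given as values.

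**Figure D4:**
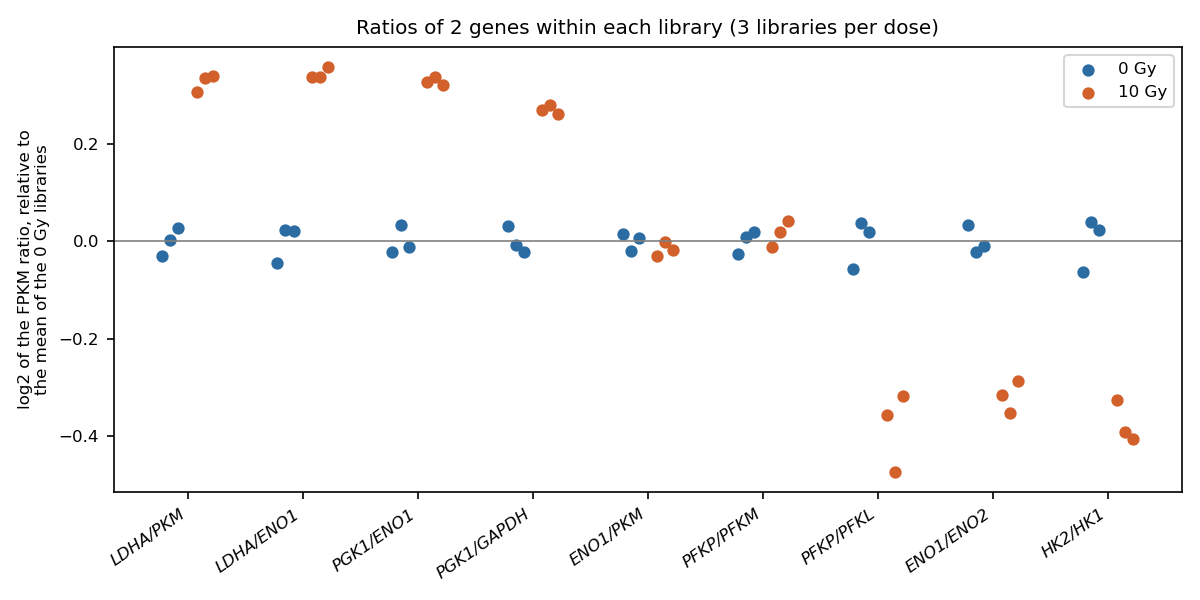
Log2 of the FPKM ratio of gene pairs in each library, relative to the mean of the 0 Gy libraries, with 1 point per library and 3 libraries per dose. LDHA and PGK1 ratios to the enzymes that fell sit above 0 after 10 Gy, the ratio of HK2 to HK1 sits below it, and the ratio of ENO1 to PKM does not separate the doses.

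Isozymes of the same step did not all move with the gene named above. HK1, the housekeeping hexokinase, made up most of the hexokinase FPKM and stood at 45.6 ± 0.187 FPKM at 0 Gy and 44.5 ± 0.781 FPKM at 10 Gy (limma adjusted p = 0.35, and 0.09 with adjusted p = 0.048 under TPM). The share of HK2 in the FPKM of all 5 hexokinase genes was 20.6% ± 0.623 at 0 Gy and 16.7% ± 0.432 at 10 Gy (SD, n = 3), with no overlap. For phosphofructokinase, PFKM (muscle type) fell by 0.22 (limma adjusted p = 0.0027), whereas PFKL (liver type) rose by 0.15 (limma adjusted p = 0.019). The share of PFKP was 75.3% at 0 Gy and 72.8% at 10 Gy, and that of PFKL 11.7% and 14.8%. Shares of FPKM within a family depend on the length used for each gene. Merged exons and principal transcript span 8926 and 2912 bases for PFKL, and 4836 and 2654 for PFKP. They span 6296 and 3605 bases for HK1, and 6064 and 5772 for HK2. ENO2, the neuronal enolase, stood at 37.6 and 39.3 FPKM and passed as higher under the other 3 scalings (0.14 to 0.19) but not with the deposited values. The ratio of ENO1 to ENO2 went from 13.1 to 13.6 in controls to 10.4 to 10.9 after irradiation. LDHB, which favours the use of lactate, fell by 0.25 (limma adjusted p = 0.025), and LDHA made up 89.4% of lactate dehydrogenase FPKM at 0 Gy and 91.5% at 10 Gy. The LDHB row shares 33.4% of its merged exons and 64.6% of its principal transcript with another row on the same strand. The level of LDHB and the share of LDHA are therefore uncertain. The LDHB call was lost with TPM (limma adjusted p = 0.11), upper quartile and own-read scaling.

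In the families of SLC2A1 and PFKFB3, SLC2A6 and PFKFB4 rose. SLC2A6, a transporter of lysosomal membranes, measured 9.34, 9.58 and 9.60 FPKM at 0 Gy and 12.0, 11.8 and 12.9 FPKM at 10 Gy and rose by 0.33 (limma adjusted p = 0.0016). With the deposited values it was the only riser among 4 other glucose transporters that passed the filter, of 10 listed, and SLC2A3 and SLC2A8 passed as well under the other 3 scalings. SLC2A1 went from 75.9% to 71.8% of the FPKM of the family. SLC2A3 (GLUT3) stood at 7.06 and 7.60 FPKM. PFKFB4, an isozyme of PFKFB3, measured 3.03, 3.13 and 3.00 FPKM in controls and 4.43, 4.39 and 4.27 FPKM in irradiated cells. It rose by 0.40 (limma adjusted p = 0.0011). Its ratio to PFKFB3 differed by 0.50 on the log2 scale, with no overlap, and the share of PFKFB3 was 79.9% at 0 Gy and 77.1% at 10 Gy. PFKFB2 and PFKFB4 were the tested genes of the 4 on that list, and TIGAR, a fructose 2,6-bisphosphatase induced by p53, stayed under the filter at 0.524 FPKM at 0 Gy. The TIGAR row shares 42.6% of its merged exons and 61.5% of its principal transcript with another row on the same strand. Its level is therefore uncertain, as for ALDOA.

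Over the 24 other isozymes and remaining enzymes of glycolysis, 13 were tested. Of these, PFKL and ALDOC rose, PFKM and LDHB fell and 9 did not pass, beside 11.9% higher and 23.7% lower over all genes. ALDOC, the brain aldolase, rose by 0.43 from a level of 1.29 FPKM (limma adjusted p = 0.0047). TPI1 was the most abundant, with a log2 difference of -0.09 (limma adjusted p = 0.26). The median change of the 13 was -0.04, the same as that of all genes to this precision.

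Past pyruvate, all 5 subunit genes of the pyruvate dehydrogenase complex, which feeds pyruvate to the citrate cycle, fell. PDHA1 fell by 0.22, PDHB by 0.21, PDHX by 0.16, DLAT by 0.20 and DLD by 0.27 (limma adjusted p from 0.0015 to 0.028). Under TPM, DLD alone of the 5 stayed called lower (adjusted p = 0.010), and PDHX was lost with upper quartile and own-read scaling as well. PDK2, a kinase that switches the complex off, rose by 0.31 from 3.52 ± 0.214 to 4.60 ± 0.194 FPKM, and PDPR, a subunit of the phosphatase that switches it on, rose by 0.27. In that list of 12 genes, 11 were tested, 2 rose and 5 fell, with a median of 0.04. Over all genes tested, 11.9% were called higher and 23.7% lower.

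Of 8 carriers of lactate and pyruvate, 6 were tested, 2 fell and none rose with the deposited values, with a median of -0.03. Over all genes tested, 23.7% were called lower and 11.9% higher. MPC1, a subunit of the mitochondrial pyruvate carrier, measured 10.3, 10.8 and 10.2 FPKM at 0 Gy and 7.61, 7.16 and 7.38 FPKM at 10 Gy, falling by 0.45 (limma adjusted p = 6.35e-04). SLC16A7 (MCT2), an importer of lactate and pyruvate, fell by 0.43 (limma adjusted p = 0.0033). The lactate exporter SLC16A3 (MCT4) stood at 88.1 ± 4.76 and 94.3 ± 0.193 FPKM (limma adjusted p = 0.11) and passed as higher under the other 3 scalings (0.17 to 0.23). Its chaperone BSG, the most abundant of the list, stood at 237 and 232 FPKM, and passed as higher under TPM alone (0.10, limma adjusted p = 0.042).

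**Figure D5:**
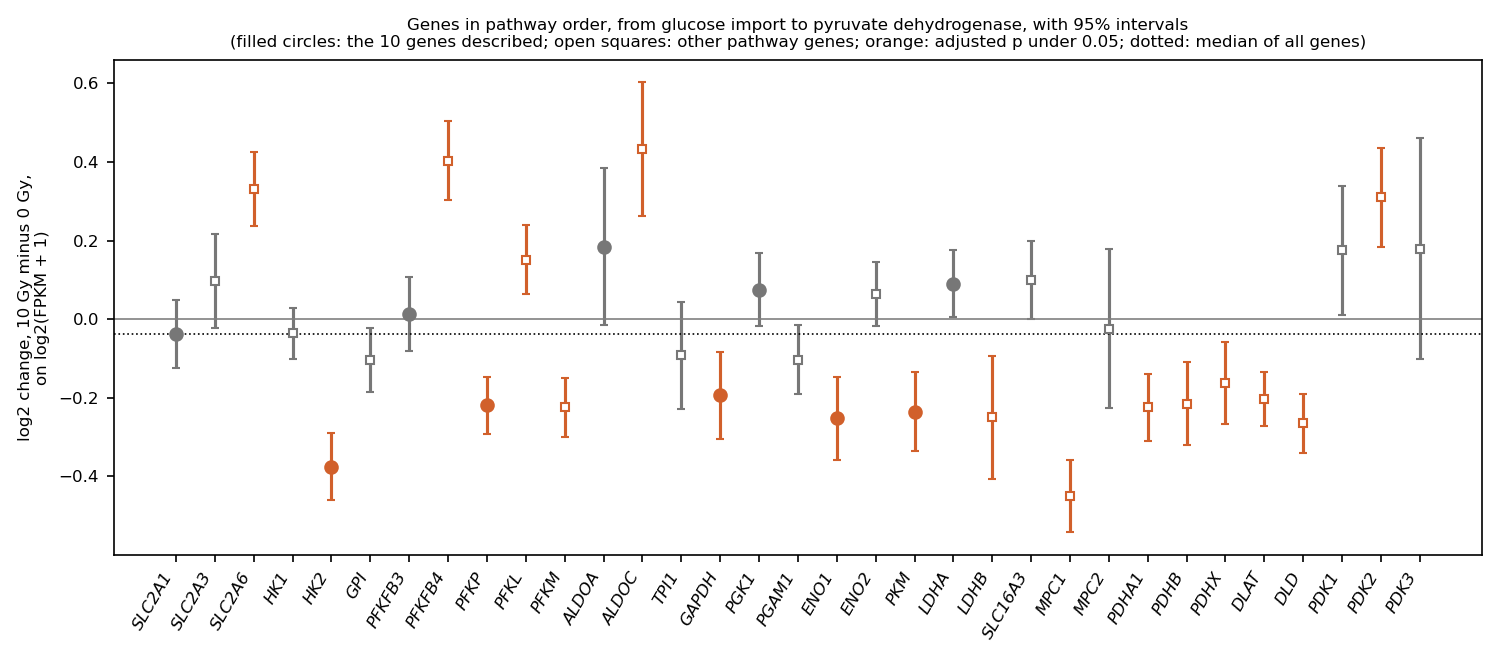
Change on log2(FPKM + 1), 10 Gy minus 0 Gy, of genes in pathway order from glucose import to pyruvate dehydrogenase, with 95% intervals. Filled circles are the 10 genes, open squares other pathway genes, orange marks an adjusted p under 0.05 and the dotted line the median of all genes (-0.04). Called genes are found on both sides of 0, from ALDOC at 0.43 to MPC1 at -0.45.

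Glycolysis genes are known targets of the hypoxia-inducible factors and of MYC, so their regulators and hypoxia targets outside glycolysis were read from the same fit. Of 15 regulators, 12 were tested, 3 rose and 5 fell, with a median of -0.02. The shares over all genes tested were 11.9% higher and 23.7% lower. MYC measured 66.2, 63.1 and 64.5 FPKM in controls and 46.6, 44.2 and 46.0 FPKM after irradiation and fell by 0.49 (limma adjusted p = 4.39e-04). Its partner MAX fell by 0.15 and the promoter factor SP1 by 0.31 (limma adjusted p = 0.026 and 0.0037), while VHL, which marks HIF proteins for degradation, and KLF4 were the other genes that fell. The calls on MAX, VHL and KLF4 were lost under the other 3 scalings, and VHL turned positive under TPM (0.0024, limma adjusted p = 0.96). EPAS1, which encodes HIF-2 alpha, rose by 0.48 from 6.41 to 9.36 FPKM (limma adjusted p = 5.93e-04), HIF1AN, a hydroxylase that restrains HIF, rose by 0.20 and the glucose sensor MLXIP by 0.16. HIF1A was the most abundant, at 79.3 ± 1.87 and 81.9 ± 0.886 FPKM, and did not pass (limma adjusted p = 0.26), but passed as higher under the other 3 scalings (0.12 to 0.17). HIF-1 alpha is regulated largely as a protein, which these data do not measure.

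Of 24 hypoxia targets outside glycolysis, 22 were tested, 7 rose and 4 fell, with a median of 0.03. The shares over all genes tested were 11.9% higher and 23.7% lower. Under TPM 10 of the 22 were called higher and 2 lower, beside 3138 and 1072 of 12145 genes in all. BHLHE40 (a transcriptional repressor), DDIT4 (an inhibitor of mTORC1) and KDM3A (a histone demethylase) rose most, by 0.52, 0.42 and 0.27. ANGPTL4, a lipoprotein lipase inhibitor, fell by 0.37 and HILPDA, a lipid droplet protein, by 0.23, and ADM, a vasodilator peptide, by 0.19. The call on ADM was lost under the other 3 scalings and that on HILPDA under TPM (adjusted p = 0.074). CA9 was listed at 0 in all control libraries.

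Stretches of 3 promoters are shown, of LDHA and PGK1, whose irradiated libraries were all higher, and of HK2, the gene that fell most. Hypoxia-inducible factors bind elements with the core ACGTG. The letters ACGTG were searched on both strands in the 250 bases before each RefSeq start (GRCh38.p14), where they also count inside the E-box CACGTG. Capitals mark the matches on the plus strand, CACGT being the same letters read on the other strand.
LDHA: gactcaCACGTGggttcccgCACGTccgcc
PGK1: gccggACGTGacaaacggaagccgCACGTc
HK2: ccaatgggcgtgcgCACGTcactgatccgg
The LDHA stretch lies at chr11:18394470-18394499, 93 to 64 bases before the start, and holds the E-box form. The PGK1 stretch lies at chrX:78104041-78104070, 207 to 178 bases before the start, and the HK2 stretch at chr2:74834065-74834094, 62 to 33 bases before it.

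Such letters were present upstream of at least 1 start of 7 of the 10 genes, and upstream of 10 of their 18 starts, beside 21.7% of 27305 genes and 18.5% of 35116 starts in all. SLC2A1, ENO1 and PKM had none in this window. The 7 genes with a match, HK2, PFKP, ALDOA, GAPDH, PGK1, LDHA and PFKFB3, include genes that fell and genes that did not pass. A match describes letters only, and no binding was measured.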

How the data were processed

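The authors deposited FPKM values of 6 polyA libraries. The submitters' processing notes name HISAT2 and GRCh38, and the counting program is not given in the sources used here. Multiplying each FPKM by the gene length and an implied depth gave whole reads for 100% of values above 0 (tolerance 0.02). These reads served for depth, thinning and scaling. No authors' comparison was used.

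Samples were grouped by the treatment label. Values were transformed as log2(FPKM + 1), and genes averaging 1 FPKM or more over the 6 libraries entered a limma fit (version 3.58.1, R 4.3.3) whose eBayes step used an intensity trend. Genes were called at a Benjamini-Hochberg adjusted p under 0.05. Changes are on that log2 scale, which understates those of low genes. The procedure was tested on simulated data.

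The 10 genes and the other lists, written from general knowledge, were chosen with earlier results of these data known. Of each list, up to 3 called genes with the largest rise, up to 3 with the largest fall and the most abundant were named, as was every gene behind a count of 5 or fewer; further genes (HK1, ENO2, SLC2A3, SLC2A8, SLC16A3, PGAM1, TIGAR and CA9) were named after their values were seen. Some listed genes are in the counts but are not reported here by name. Alternatives covered pseudocounts, filters, scalings, thinning, the replicate block, eBayes settings, protein-coding genes and each library left out; scaling to own reads was added after seeing the data. Motifs were searched in RefSeq promoters. Python 3.11.15 and matplotlib 3.10.9 made the figures.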

Additional observations from a re-analysis of the deposited data

How the results depend on the processing

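Over the 20 alternatives, HK2, PFKP, ENO1 and PKM stayed called lower. ALDOA had 19 alternatives, since it is under a filter of 5 FPKM. Scaling moved counts most. Upper quartile scaling called 2561 genes higher and 1444 lower, TPM 3138 and 1072, and own-read scaling 2303 and 1650. Of the 10 genes, 2, 4 and 2 were then called higher, and the summed ratio was 0.955, 0.980 and 0.944. The 4 under TPM were LDHA, PGK1, PFKFB3 (0.14, limma adjusted p = 0.030) and ALDOA (0.28, limma adjusted p = 0.042). Of the 84 tested genes of the 9 other pathway lists, 22.6% (19) were called higher and 28.6% (24) lower, beside 11.9% and 23.7% of all genes. Under upper quartile, TPM and own-read scaling, 32, 34 and 30 of the 84 were called higher. Under TPM 11 were called lower, and with a filter of 5 FPKM 12 were called higher. SLC2A1 turned positive, at 0.052 with upper quartile scaling, 0.088 with TPM and 0.035 with own-read scaling, without passing. PFKFB3 ranged from -0.012 (without control replicate 3) to 0.050 (without control replicate 1) as libraries were left out. With no filter, 1815 genes were called lower and GAPDH was lost (limma adjusted p = 0.25). Leaving out 1 library at a time gave 846 to 1388 genes higher and 1805 to 2621 lower, and of the 10 genes 0 to 1 higher and 4 to 5 lower. The lowest counts came without RT replicate 2, followed by RT replicate 1 (876 and 1835). The cause of these differences was not tested. A change of 1.3-fold was within the intervals of none of SLC2A1, PFKFB3, LDHA and PGK1.

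Same-numbered libraries did not deviate together from the means of their doses (correlations of -0.040, -0.035 and -0.10). With 3 libraries per dose, such values cannot settle whether the replicate numbers pair the libraries. A replicate block called 1137 genes higher and 2366 lower, 4 of the 10 genes lower (GAPDH lost, limma adjusted p = 0.077) and 17 pathway genes higher and 21 lower, with LDHB (limma adjusted p = 0.059) and PFKL (0.051) among those lost.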

Other observations

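GAPDH and PGK1 are also used as reference genes for relating other transcripts, and 13 further reference genes were read from the same fit. Of these 13, 7 fell and none rose, beside 23.7% lower and 11.9% higher among all genes tested. Their median change was -0.14, beside -0.04 for all genes. Among the 356 genes of at least 100 FPKM set out above, which include some of the 13, 55.9% were called lower and the median was -0.17. Under upper quartile, TPM and own-read scaling 4 of them were called lower, and under TPM B2M was called higher. ACTB, the cytoskeletal actin, fell by 0.35, HPRT1 by 0.32 and PPIA by 0.26. Within libraries, the ratio of GAPDH to ACTB was 0.799, 0.854 and 0.819 at 0 Gy and 0.880, 0.932 and 0.944 at 10 Gy. The ratio of GAPDH to B2M went the other way, from 10.0, 11.0 and 11.0 to 9.27, 9.04 and 9.10. GAPDH relative to TBP overlapped between doses, with a log2 difference of 0.0060.

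Glycogen, the store that feeds glucose 6-phosphate into glycolysis, had 11 listed genes. Of these, 9 were tested, 3 rose and 4 fell, with a median of -0.06. Over all genes tested, 11.9% were called higher and 23.7% lower. GYS1, the glycogen synthase of muscle and most cells, measured 11.1, 11.2 and 10.9 FPKM at 0 Gy and 16.5, 14.5 and 14.7 FPKM at 10 Gy and rose by 0.42 (limma adjusted p = 0.0015). The branching enzyme GBE1 rose by 0.15. PYGL and PYGB, phosphorylases that break glycogen down, fell by 0.27 and 0.23, and PYGB was the most abundant at 108 FPKM in controls. GYG1, the primer protein of glycogen, fell by 0.25, and PGM2, a phosphopentomutase related to phosphoglucomutase, by 0.15. The call on PGM2 was lost under the same 3 scalings, and that on GYG1 under TPM. Of 9 genes of gluconeogenesis, 5 were tested and 2 fell, SLC37A4, the glucose 6-phosphate transporter, by 0.37 and PCK2, the mitochondrial PEP carboxykinase, by 0.21, the latter lost under the same 3 scalings. PC, pyruvate carboxylase, was the most abundant of that list at 14.2 FPKM at both doses.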
